A study of Mus musculus with 2 samples.

Results

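H19, Igf2, Mest, Dlk1, Meg3, Cdkn1c, Peg3 and Grb10, 8 imprinted genes of fetal growth, were followed in droplet single-cell libraries of mouse embryonic intestine. All 8 had UMIs (unique molecular identifiers, 1 per captured transcript) in both count matrices, which list 52636 genes. The 8 were chosen by name from these matrices when their levels by genotype and cell class were already known, so their levels and ratios are descriptions and were given no test. The Casp8-mutant library came from an embryo of genotype Casp8 C362A/C362A Mlkl -/-, whose caspase-8 has alanine in place of the catalytic cysteine. The Mlkl-null library came from an Mlkl -/- embryo, and both lack MLKL, the protein that ruptures the membrane in necroptosis. Both embryos were taken at E18.5 on the C57BL/6 background, and the intestine, given as whole in 1 place of the labels and as small intestine in another, was dissociated with papain. There was 1 embryo and 1 library per genotype, so genotype, embryo, sex and library cannot be told apart, and every interval given here is a 95% interval of counting error only.

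Imprinted genes are transcribed mainly from the allele of 1 parent, and many of them set the growth of the fetus. H19 and Igf2 share a control region on which the methylated paternal copy gives Igf2, a growth factor, and the unmethylated maternal copy gives H19, a noncoding RNA. In the mouse most of this network is strongly expressed before birth and is turned down in the weeks after it, in the intestine as in other organs. The 3' tags counted here do not tell the parental alleles apart.

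The Casp8-mutant library had 1014 barcodes and 2804929 UMIs, and the Mlkl-null library 1478 barcodes and 6290008 UMIs. After barcodes under 500 genes were left out, 873 Casp8-mutant and 1435 Mlkl-null cells remained, with median depths of 1957 and 3707 UMIs. The largest class was epithelial-like, with 521 Casp8-mutant and 1187 Mlkl-null cells. Cluster 13, with 68 Casp8-mutant and 0 Mlkl-null cells and led by Ifit1bl1, Ubd and Ly6a, was given no class name and is not in that class. Fibroblast-like cells numbered 58 in the Casp8-mutant library and 63 in the Mlkl-null library, myeloid-like cells 110 and 61, and enteroendocrine- or islet-like cells 35 and 37. Classes were clusters named from marker genes, made without the 8 genes and without 47 other imprinted genes. Casp8 had 232 UMIs in the Casp8-mutant library and 399 in the Mlkl-null library, and Mlkl had 13 and 1, which do not check the alleles since tags lie at the transcripts' 3' ends. The libraries shared 2 barcodes.

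Over all cells, 5 of the 8 genes were lower in the Casp8-mutant library than in the Mlkl-null library and none was higher. Lower means at least 1.5-fold with a counting interval that leaves out 1, and by that rule 26.7% of all 15326 genes with at least 20 UMIs were lower. Levels are in CPM, counts per 1000000 UMIs of the class in that library. H19, the noncoding RNA, had 1103 CPM in the Casp8-mutant library and 5502 CPM in the Mlkl-null library, a ratio of 0.20 (0.193 to 0.208). Igf2 had 136 CPM in the Casp8-mutant library and 503.9 CPM in the Mlkl-null library, a ratio of 0.271 (0.242 to 0.302). Cdkn1c, which encodes the cyclin-dependent kinase inhibitor p57, had 291 and 1842 CPM in the same order of libraries, a ratio of 0.158 (0.147 to 0.170). These 3 differed most between the libraries.

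Mest, which encodes a membrane protein of the alpha/beta hydrolase family, had 35 UMIs (13.5 CPM) in the Casp8-mutant library and 216 (35.0 CPM) in the Mlkl-null library, a ratio of 0.389. Grb10, an adaptor that restrains signalling from insulin and IGF receptors, had 30.0 CPM in Casp8-mutant and 47.1 CPM in Mlkl-null cells. Its ratio of 0.639 (0.489 to 0.819) was the nearest of the 5 to the 1.5-fold limit, and it no longer passed with median-of-ratios scaling (0.680) or as a mean over cells (0.713). The other 3 genes differed by less than that. Dlk1, a transmembrane relative of the Notch ligands, had a ratio of 0.808 (0.705 to 0.923), and Meg3, a maternally expressed noncoding RNA, had 0.745 (0.681 to 0.814). Peg3, a zinc-finger protein, had 67 UMIs in Casp8-mutant and 189 in Mlkl-null cells, with a ratio of 0.845 whose interval (0.627 to 1.12) includes 1.

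**Figure D1:**
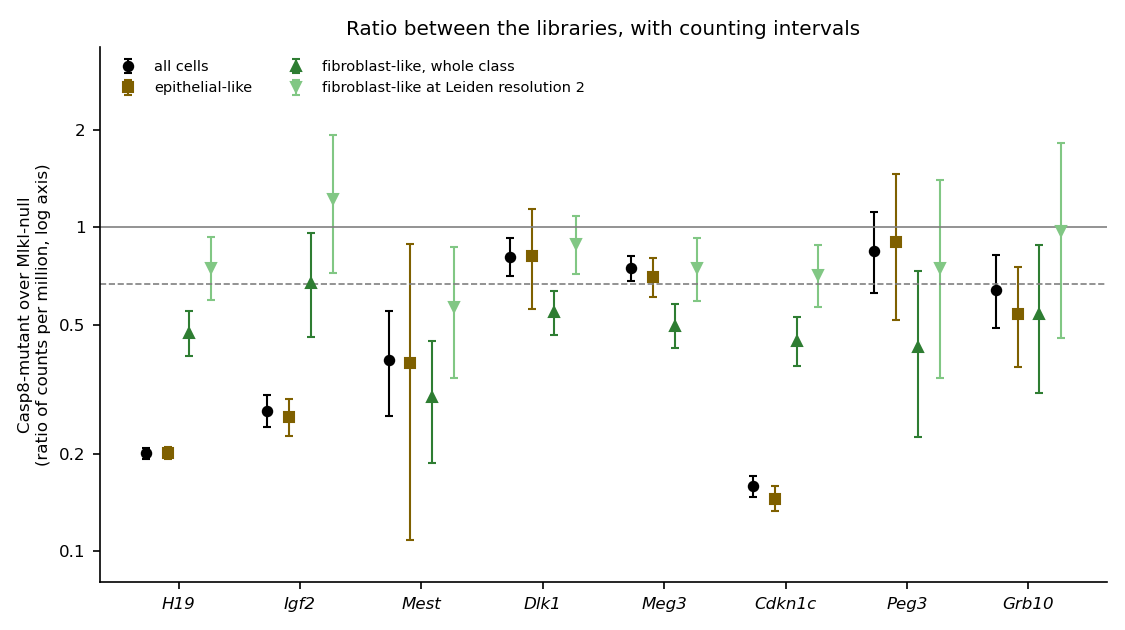
Ratio of each gene's level in CPM, Casp8-mutant over Mlkl-null, on a log axis, for all cells, epithelial-like cells, the whole fibroblast-like class and its finer fibroblast-like cluster. Bars are 95% counting intervals, the solid line marks equal levels and the dashed line the 1.5-fold limit. H19, Igf2 and Cdkn1c lie between 0.145 and 0.271 in all and epithelial-like cells, and nearer to 1 in the fibroblast-like points.

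H19 is a processed, spliced RNA without a protein product, at chr7:142575529-142578143 on the minus strand (GRCm38, GENCODE M21). Its first exon holds the hairpin of miR-675, and the hairpin has a row of its own in the matrices, with 14 UMIs in the Casp8-mutant and 335 in the Mlkl-null library over all barcodes. Counting is of tags from polyadenylated RNA, so these UMIs are not mature microRNA. The hairpin (chr7:142577064-142577147, minus strand) and both mature arms are shown because they are the part of H19 with a known product. Sequences are RefSeq's on GRCm38.p6. Capitals mark the mature arms in the hairpin and the seed, bases 2 to 8, in each arm.
Mir675 hairpin: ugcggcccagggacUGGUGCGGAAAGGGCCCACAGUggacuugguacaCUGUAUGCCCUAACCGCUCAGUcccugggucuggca
miR-675-5p: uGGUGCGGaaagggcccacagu
miR-675-3p: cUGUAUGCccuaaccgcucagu
The arms have different seeds. Other hairpins within the 8 genes had few UMIs, with none in the Casp8-mutant library and 2 in the Mlkl-null library for Mir483 in Igf2, and none in either for Mir335 in Mest. In Meg3, Mir1906-1 had 2 Casp8-mutant and 10 Mlkl-null UMIs and Mir770 had 0 and 1. No source used here states the strand setting of the counting, so reads of overlapping genes cannot be told apart. Igf2os, which overlaps Igf2, had 54 Casp8-mutant and 442 Mlkl-null UMIs, Copg2, which overlaps Mest, had 40 and 145, and Gm44732, antisense to Cdkn1c, had 5 and 84.

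H19 was present in every class of the Mlkl-null library and differed among classes in both. In Casp8-mutant cells its level was highest in 7 hepatocyte-like cells, at 7776 CPM (6468 to 9272). Fibroblast-like cells followed with 1252 CPM (1084 to 1438), a level that does not differ beyond its interval from the 1220 CPM of epithelial-like cells. Enteroendocrine- or islet-like cells had 812 CPM, lymphoid-like cells 370, myeloid-like cells 219, erythroid-like cells 214 and enteric neuron-like cells 160, and the last 4 have overlapping intervals. Cluster 13, without a class name, had 807 CPM (677 to 954), and 20 granulocyte-like cells had 454 CPM (277 to 701). In Mlkl-null cells the order was different at the top. Epithelial-like cells came first with 6059 CPM, before enteroendocrine- or islet-like cells with 2797 (2537 to 3075) and fibroblast-like cells with 2660 (2466 to 2865). Enteric glia-like cells, a class found in that library alone, had 1817 CPM. Myeloid-like, lymphoid-like, enteric neuron-like and erythroid-like cells lay between 916 and 1108 CPM.

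**Figure D2:**
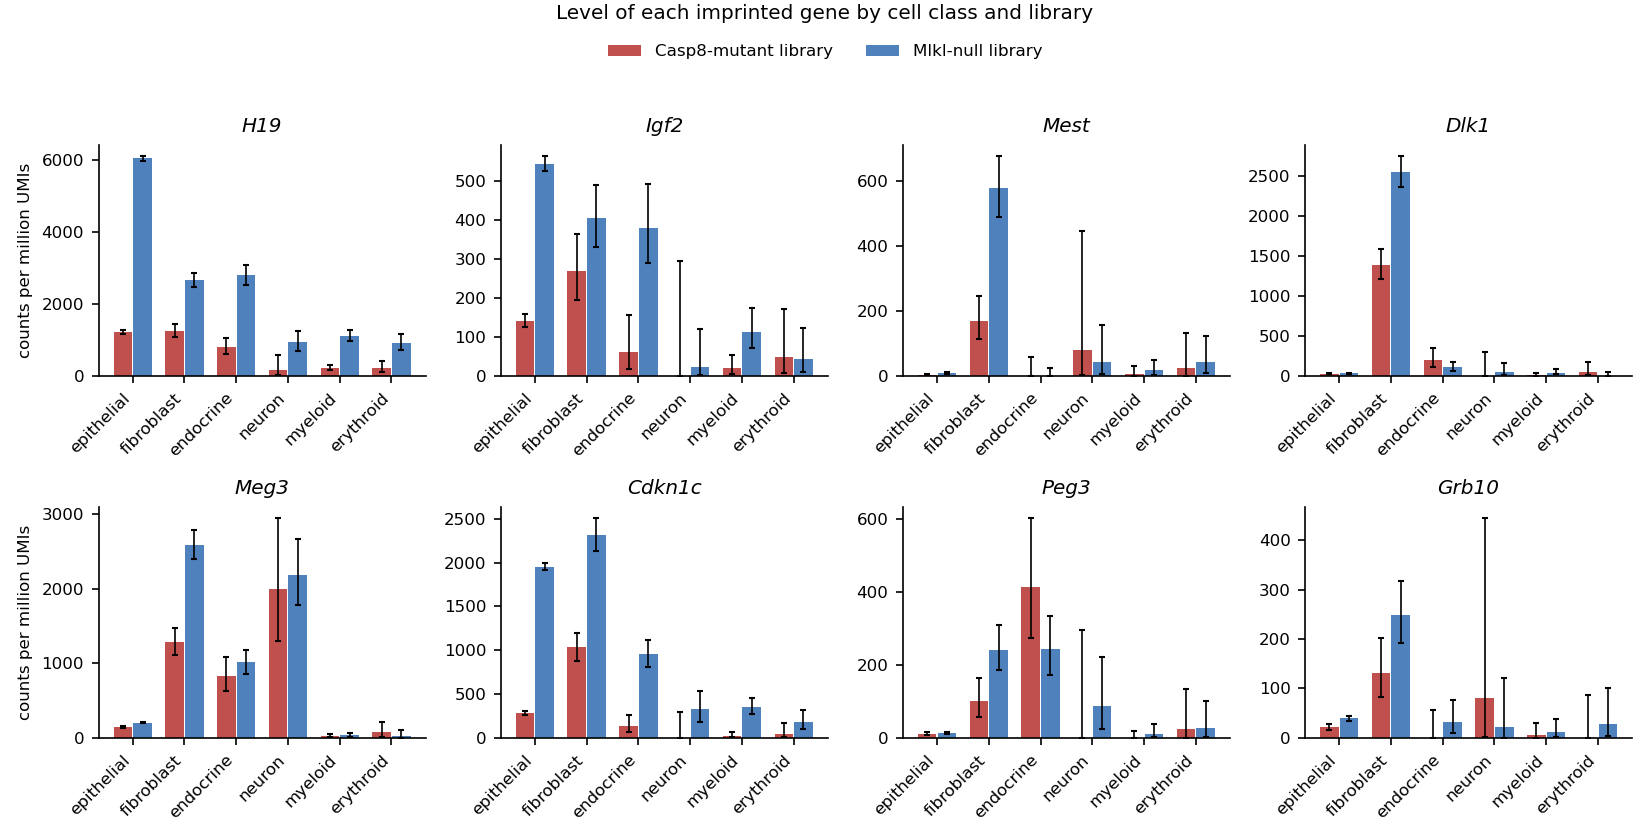
Level in CPM of each gene in 6 marker-defined cell classes, with the Casp8-mutant library left of the Mlkl-null library in each pair and 95% Poisson intervals. H19 is at 1220 in Casp8-mutant epithelial-like cells against 6059 in Mlkl-null ones, while Dlk1 and Mest stand out in fibroblast-like cells of both libraries and Peg3 in Casp8-mutant enteroendocrine- or islet-like cells.

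Most UMIs of H19, Igf2 and Cdkn1c lay in epithelial-like cells, the class with most of all UMIs. Epithelial-like cells held 79.2% of the H19 UMIs of the Casp8-mutant library and 95.3% of those of the Mlkl-null library, beside 71.6% and 86.5% of all UMIs. For Igf2 the shares were 74.1% in Casp8-mutant and 93.7% in Mlkl-null cells, and for Cdkn1c 69.7% and 91.8%. The Casp8-mutant share of Cdkn1c was below that of all UMIs. By level, Cdkn1c had 1032 CPM in Casp8-mutant and 2319 CPM in Mlkl-null fibroblast-like cells, above the 283 and 1955 CPM of epithelial-like cells. Igf2 in fibroblast-like cells had 270.5 CPM in the Casp8-mutant library, above its epithelial-like 141, and 406 CPM in the Mlkl-null library, below its epithelial-like 546. Dlk1 and Mest lay mainly in fibroblast-like cells, with 75.7% of Dlk1 in fibroblast-like cells of the Casp8-mutant library and 77.7% in those of the Mlkl-null library, and 77.1% and 69.9% of Mest. These cells held 6.11% of all Casp8-mutant UMIs and 4.23% of all Mlkl-null UMIs. Meg3 was split between epithelial-like cells (41.0% Casp8-mutant, 52.7% Mlkl-null) and fibroblast-like cells (31.4% and 32.7%).

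**Figure D3:**
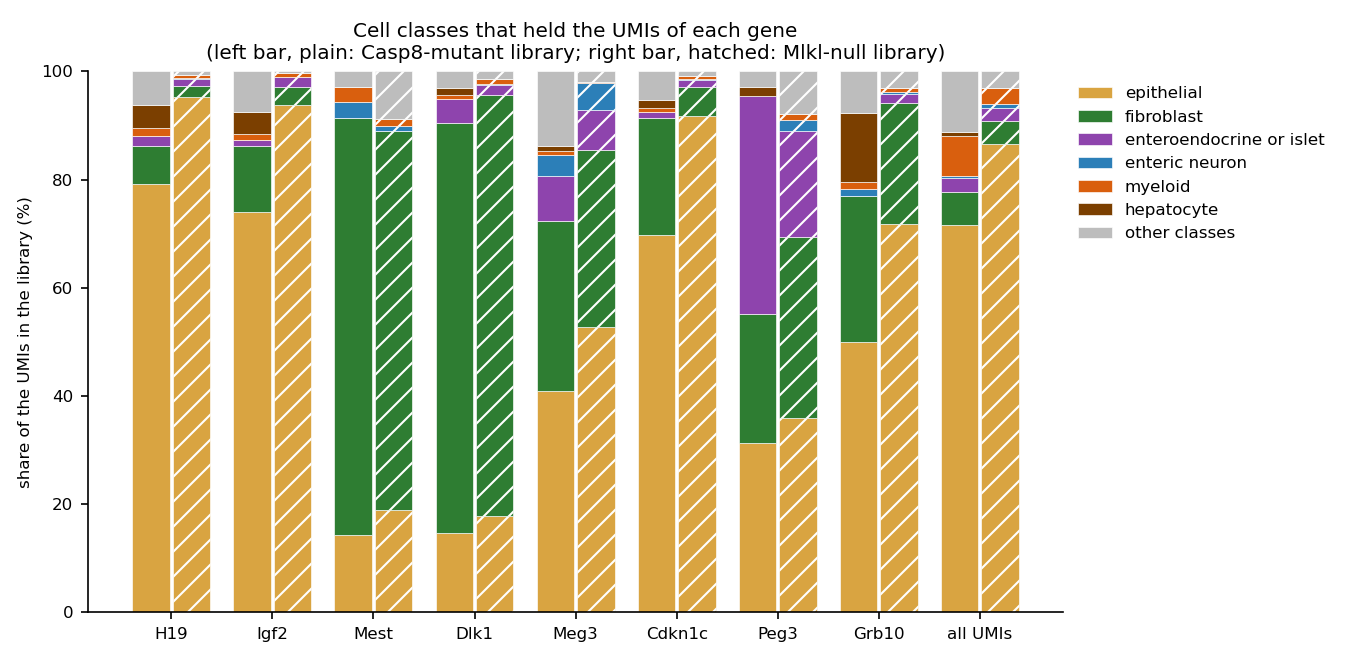
Share of each gene's UMIs held by each cell class, with the share of all UMIs at the right. In each pair the plain left bar is the Casp8-mutant library and the hatched right bar the Mlkl-null library. The epithelial-like share of H19 is 79.2% and 95.3%, and the fibroblast-like share of Dlk1 is 75.7% and 77.7%.

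Within epithelial-like cells the same 5 genes, H19, Igf2, Cdkn1c, Mest and Grb10, were lower in the Casp8-mutant library, against 27.7% of all 13887 genes measured there. H19 had 1220 CPM (2272 UMIs) in Casp8-mutant cells and 6059 CPM (32361 UMIs) in Mlkl-null cells, a ratio of 0.201 (0.193 to 0.210). Igf2 had 141 and 546 CPM, a ratio of 0.259 (0.227 to 0.294). Cdkn1c had 283 CPM in Casp8-mutant and 1955 CPM in Mlkl-null cells, a ratio of 0.145 (0.133 to 0.158). Grb10 had a ratio of 0.541 (0.370 to 0.756), and Mest rested on 5 Casp8-mutant and 41 Mlkl-null UMIs. Meg3, with 143 CPM in Casp8-mutant and 204 CPM in Mlkl-null cells, had a ratio of 0.701 and fell short of 1.5-fold. Its direction was not stable, with 9 of 13 alternatives below 1 and others at 1.11 (Leiden resolution 0.5), 1.12 (no division UMI), 1.21 (each library clustered alone) and 1.26 (at least 1000 genes). Dlk1 and Peg3 had intervals that include 1.

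Marker lists of other classes also differed between the libraries in epithelial-like cells, in both directions. The granulocyte markers summed to 3557 CPM in Casp8-mutant and 34.8 CPM in Mlkl-null epithelial-like cells, with all 12 measured higher, and Elane, Mpo, Cxcr2 and Csf3r at 0 in the Mlkl-null cells. The erythroid markers summed to 10478 and 3016 CPM, the enteroendocrine or islet markers to 2955 and 1428 CPM, and the myeloid markers to 608 and 321 CPM. Lower in the Casp8-mutant cells were the smooth muscle markers (99.3 and 301 CPM, 8 of 8 measured), the pancreatic acinar markers (206 and 795 CPM) and the enteric glia markers (30.1 and 73.4 CPM). The epithelial markers themselves summed to 11936 CPM in Casp8-mutant and 15636 CPM in Mlkl-null cells, with 4 lower and 6 higher of 18 measured. The part of these in the H19, Igf2 and Cdkn1c values was not tested.

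The epithelial-like class is made of different clusters in the libraries, and H19 differed widely among them. Nearly all Casp8-mutant epithelial-like cells lay in clusters 3, 4, 9 and 10, and nearly all Mlkl-null ones in clusters 0, 1, 2, 5, 6 and 11. In the Casp8-mutant library H19 had 4925 CPM (4669 to 5192) in cluster 3, led by Sprr2a3 and interferon-induced genes such as Ifit1 and Isg15. It had 1279 CPM in cluster 10, led by Gm23624 and Gm26917, 642 in cluster 9, led by the goblet and Paneth genes Zg16 and Defa24, and 254 (222 to 290) in cluster 4, led by Gpx2 and Reg3g. In the Mlkl-null library H19 had 10339 CPM in cluster 5, led by the small noncoding RNA Rn7sk with Gm23624 and Gm26917 among its leading genes, and 9333 in cluster 1, led by Afp and Gpx3. Cluster 0, led by Fabp1, and cluster 2, led by Cd36, had 6868 and 6416 CPM, and cluster 11, led by Mptx1 and Fcgbp, had 2577. Cluster 6, with the division genes Ccnb2 and Pclaf among its leading genes, was lowest of the 6 at 1503 CPM. The ranges of the libraries' clusters overlap, with 254 to 4925 CPM in the Casp8-mutant library and 1503 to 10339 CPM in the Mlkl-null library.

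Igf2 and Cdkn1c followed H19 from cluster to cluster. Igf2 had 536, 124, 94.1 and 41.2 CPM in Casp8-mutant clusters 3, 10, 9 and 4, and 1245 CPM in Mlkl-null cluster 5 down to 125 CPM in cluster 6. Cdkn1c had 1318 CPM in Casp8-mutant cluster 3 and 56.1 CPM in cluster 4, and 3421 CPM in Mlkl-null cluster 1 and 360 CPM in cluster 6. Across the 10 clusters of at least 20 cells, Pearson's r of log2 CPM with H19 was 0.99 for Cdkn1c and 0.98 for Igf2, but 0.41 for Meg3. The 10 points share libraries and their depth. The 12 genes of cell division, summed, went the other way, with r of -0.80 with H19. Their sum was 111 CPM in Casp8-mutant cluster 3 and 1007 CPM in cluster 4, and 97.9 CPM in Mlkl-null cluster 2 and 1460 CPM in cluster 6.

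**Figure D4:**
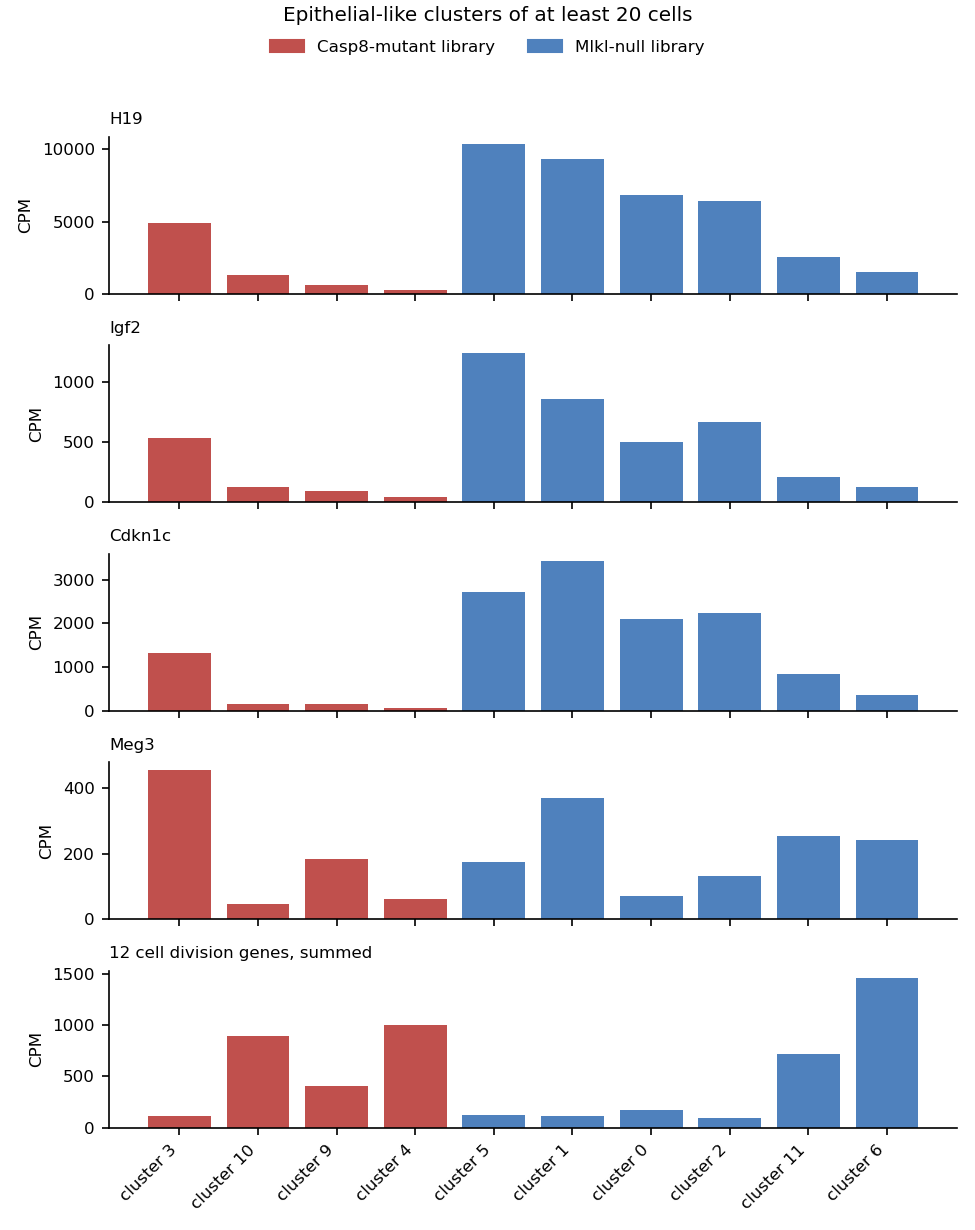
Level of H19, Igf2, Cdkn1c, Meg3 and the summed cell division genes, in CPM, in each epithelial-like cluster of at least 20 cells, with the Casp8-mutant clusters left of the Mlkl-null clusters and each library in descending order of H19. Bars carry no error. H19, Igf2 and Cdkn1c are lowest in the cluster of each library with the most division UMIs, Casp8-mutant cluster 4 (254 CPM of H19) and Mlkl-null cluster 6 (1503 CPM). Casp8-mutant cluster 10 goes the other way beside cluster 9, with more of the division genes (897 and 411 CPM) and more H19 (1279 and 642 CPM).

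A UMI of a division gene was found in a larger share of the deeper Casp8-mutant cells. Of epithelial-like cells with at least 2000 UMIs, thinned to 2000, 184 of 316 Casp8-mutant cells (58.2%) and 340 of 1057 Mlkl-null cells (32.2%) had a UMI of a division gene. H19 was lower in the Casp8-mutant library on both sides of that split. Cells without a division UMI had 1564 CPM of H19 in the Casp8-mutant library and 7670 CPM in the Mlkl-null library, a ratio of 0.204. Cells with a division UMI had 535 and 5199 CPM, a ratio of 0.103. Cdkn1c had ratios of 0.183 without and 0.0898 with a division UMI, and Igf2 0.201 and 0.207, whereas Meg3 had 261 CPM in Casp8-mutant and 236 CPM in Mlkl-null cells without a division UMI, a ratio of 1.12 (0.843 to 1.44). The depth limit kept 39 of the 167 cells of Casp8-mutant cluster 3, where H19 was highest in that library, and 143 of the 161 of cluster 4, so these shares are not shares of the whole epithelium. The part of free RNA in them was not tested.

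The share of cells with a UMI differed in the same direction among epithelial-like cells with at least 2000 UMIs, thinned to 2000. That limit left out 205 of 521 Casp8-mutant and 130 of 1187 Mlkl-null cells. It kept 39 of the 167 cells of Casp8-mutant cluster 3 and 143 of the 161 of cluster 4. The thinned shares therefore differ from those at full depth in the cells kept as well as in depth. H19 was found in 51.6% of thinned Casp8-mutant epithelial-like cells (45.9% to 57.2%) and in 96.9% of Mlkl-null ones (95.6% to 97.8%). Cdkn1c was found in 23.1% and 86.4%, and Igf2 in 16.8% and 57.3%. At full depth, with 521 Casp8-mutant and 1187 Mlkl-null cells, the H19 shares were 77.4% and 99.7%. Meg3 shares were close, at 18% of Casp8-mutant and 19.3% of Mlkl-null cells with overlapping intervals. Mest had no UMI in the 316 thinned Casp8-mutant epithelial-like cells (exact upper limit 1.16% of cells with a UMI) and was found in 1.23% of Mlkl-null ones, and at full depth the shares were 0.960% and 3.29%.

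**Figure D5:**
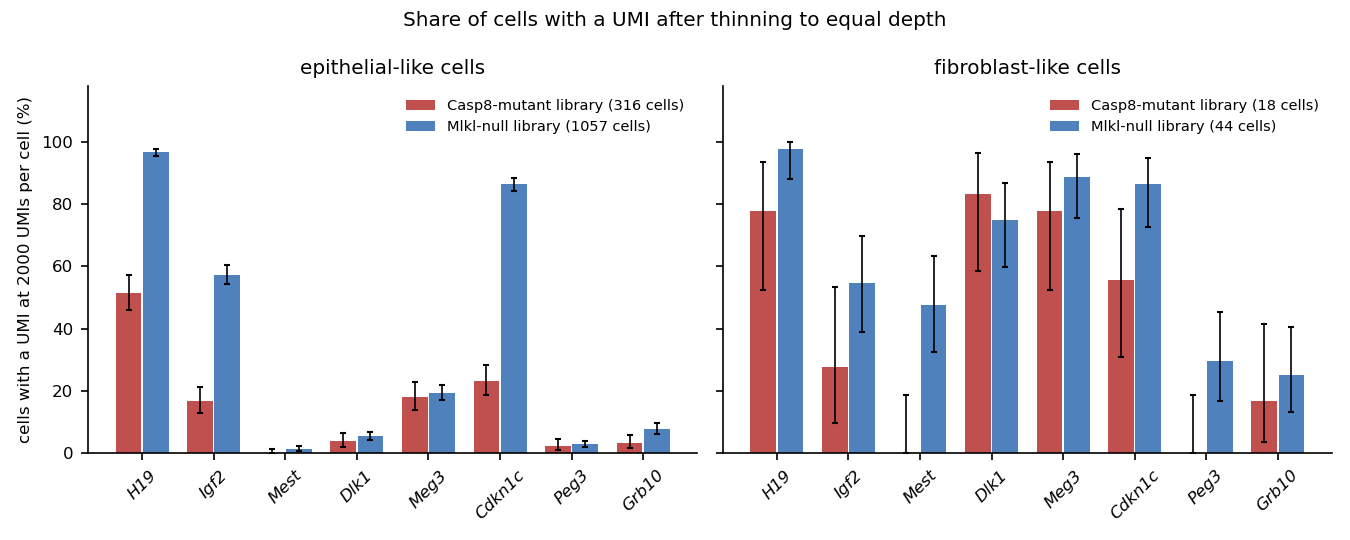
Share of cells with a UMI of each gene, in epithelial-like and fibroblast-like cells with at least 2000 UMIs, each thinned to 2000 UMIs. Shallower cells are left out, so the bars rest on 316 Casp8-mutant and 1057 Mlkl-null epithelial-like and 18 and 44 fibroblast-like cells. The Casp8-mutant library is left of the Mlkl-null library, with 95% Clopper-Pearson intervals. Cdkn1c is found in 23.1% of Casp8-mutant and 86.4% of Mlkl-null epithelial-like cells, and Meg3 in 18% and 19.3%.

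H19 was also found in erythroid barcodes, taken here as those that should lack it. In erythroid-like cells H19 had 9 UMIs (214 CPM) in the Casp8-mutant library and 65 UMIs (916 CPM) in the Mlkl-null library. In barcodes dominated by haemoglobin it had 663 and 3574 CPM of the remaining UMIs. Igf2 and Cdkn1c each had 4 UMIs (82.9 CPM, 22.6 to 212) in such Casp8-mutant barcodes. In the Mlkl-null ones Igf2 had 260 CPM (112 to 512) and Cdkn1c 877 CPM (578 to 1276). The epithelial-like levels of Igf2 and Cdkn1c lay above these intervals, except Casp8-mutant Igf2, whose 141 CPM lay within its interval. At 2000 UMIs per cell, 1 of 5 Casp8-mutant erythroid-like cells had an H19 UMI, and 75.0% of 20 Mlkl-null ones. The myeloid-like values, 219 CPM in Casp8-mutant and 1108 CPM in Mlkl-null cells, have intervals that overlap those of erythroid-like cells, and the part of free RNA in them was not tested. The myeloid-like class was not the same mixture in the libraries. Cluster 15, led by Cd74 and Apoe, held 42 of its 61 Mlkl-null cells and 0 Casp8-mutant cells. The myeloid markers summed to 13857 CPM in Casp8-mutant and 32389 CPM in Mlkl-null cells of the class, with 11 of 14 measured lower. In myeloid-like cells 3 of the 8 genes had at least 20 UMIs over both libraries. They were H19 (42 Casp8-mutant and 205 Mlkl-null UMIs), Igf2 (4 and 21) and Cdkn1c (5 and 66). All 3 were lower in the Casp8-mutant library, as were 12.5% of 2909 genes. Igf2 and Cdkn1c passed the 20 UMI limit only through the Mlkl-null library, so the limit itself favoured a lower call and the count is a description. In the Casp8-mutant library the epithelial-like 1220 CPM and the fibroblast-like 1252 CPM lay above both erythroid measures. In the Mlkl-null library the epithelial-like 6059 CPM lay above both, but the fibroblast-like 2660 CPM (2466 to 2865) lay above erythroid-like cells and below the barcodes dominated by haemoglobin (2937 to 4307). These epithelial-like values pool unlike clusters. Casp8-mutant clusters 3 and 10 lay above both measures. Cluster 9 (563 to 729) overlapped the haemoglobin-dominated barcodes (453 to 936), and cluster 4 (222 to 290) overlapped erythroid-like cells (97.7 to 406). Mlkl-null clusters 0, 1, 2 and 5 lay above both, but clusters 6 (1503 CPM) and 11 (2577 CPM) lay below the haemoglobin-dominated barcodes.

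In the fibroblast-like class all 8 genes were detected in both libraries, and 7 were lower in Casp8-mutant cells, against 16.6% of the 3353 genes measured there. Dlk1 had 1390 CPM in Casp8-mutant and 2552 CPM in Mlkl-null cells, a ratio of 0.545 (0.466 to 0.635). Mest had 170 CPM and 578 CPM, a ratio of 0.298 (0.188 to 0.445). Meg3 had 1283 CPM in Casp8-mutant and 2587 CPM in Mlkl-null cells, a ratio of 0.497. H19 had a ratio of 0.472 (0.400 to 0.552), Cdkn1c 0.446, Peg3 0.427 and Grb10 0.540. Igf2, at 0.671, was the gene short of the limit.

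That class was not the same mixture in the libraries. When it was divided, most of these calls ended in its fibroblast-like part but not in an unnamed part. Its 9 smooth muscle markers, Actg2, Acta2 and Myl9 among them, summed to 1126 CPM in Casp8-mutant and 9326 CPM in Mlkl-null cells, and the 8 of them with enough UMIs were all lower. Synpo2 was at 0 in Casp8-mutant cells. The 12 fibroblast markers summed to 7536 and 7661 CPM, with 6 lower and 1 higher of 11 measured. The granulocyte markers summed to 3258 CPM in Casp8-mutant and 38.3 CPM in Mlkl-null cells of the class, and the erythroid markers to 9574 and 2380 CPM. The endothelial markers (214 and 681 CPM, 4 of 4 measured) and the pancreatic acinar markers (56.6 and 628 CPM) were lower in the Casp8-mutant cells. The part of these in the values was not tested. At a finer Leiden resolution of 2 the class fell into a fibroblast-like cluster (31 Casp8-mutant and 44 Mlkl-null cells), a smooth muscle-like one (1 and 10) and an unnamed one (26 and 9). The unnamed one had the mesothelial genes Msln (445 CPM in Casp8-mutant and 922 CPM in Mlkl-null cells) and Upk3b (372 and 1163 CPM), and both were under 22 CPM in the fibroblast-like cluster.

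In the finer fibroblast-like cluster, 1 of the 8 genes was lower. Mest had 489 CPM in Casp8-mutant and 879 CPM in Mlkl-null cells, a ratio of 0.566 (0.342 to 0.867). H19 had 2082 and 2787 CPM, a ratio of 0.750 (0.595 to 0.931), and Dlk1 had 2529 and 2852 CPM, a ratio of 0.889 (0.719 to 1.09). Meg3 (0.745) and Cdkn1c (0.713) lay near H19, Peg3 (0.750) and Grb10 (0.976) had intervals that include 1, and Igf2 was at 1.22 (0.723 to 1.93). In the unnamed cluster with mesothelial genes, H19 had 907 CPM in 26 Casp8-mutant cells and 2901 CPM in 9 Mlkl-null cells. Dlk1 had 926 and 2659 CPM there, and Meg3 953 and 2825 CPM. By the same rule 6 of the 8 genes were lower in it, all but Mest and Peg3, over few cells. Mest was low in that cluster in both libraries, with 36.3 CPM in Casp8-mutant and 45.3 CPM in Mlkl-null cells. The share of all genes that were lower was not computed for either of these finer clusters.

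Outside those classes, Meg3 was high in enteric neuron-like cells and Peg3 in enteroendocrine- or islet-like cells. In enteric neuron-like cells Peg3 had 0 UMIs in the Casp8-mutant library and 4 (86.7 CPM) in the Mlkl-null library. In enteric neuron-like cells Meg3 had 25 UMIs (1998 CPM, 1293 to 2949) in 8 Casp8-mutant cells and 101 UMIs (2189 CPM, 1783 to 2660) in 19 Mlkl-null cells, with overlapping intervals. Peg3 had 414 CPM (27 UMIs) in Casp8-mutant and 243 CPM (37 UMIs) in Mlkl-null enteroendocrine- or islet-like cells, which held 40.3% and 19.6% of its UMIs. In the Mlkl-null library that level did not differ beyond its interval (171 to 335) from the 241 CPM of fibroblast-like or the 224 CPM of enteric glia-like cells. H19 in the same cells had 812 CPM in the Casp8-mutant library and 2797 CPM in the Mlkl-null library, and Cdkn1c had 138 and 952 CPM. Grb10 had 10 of its 78 Casp8-mutant UMIs in the 7 hepatocyte-like cells, where it reached 627 CPM and Igf2 878 CPM. The Mlkl-null library had no hepatocyte-like class.

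Of 47 other imprinted genes listed, 33 were measured over all cells, 12 were lower and none was higher, where 26.7% of all genes were lower and 22.3% higher. They had a median log2 ratio of -0.43 against -0.16 over all genes. Igf2r, the receptor that clears Igf2, had 30.0 CPM in the Casp8-mutant and 107 CPM in the Mlkl-null library, a ratio of 0.282. Plagl1, a zinc-finger factor of the imprinted network, had 63.8 and 114 CPM, a ratio of 0.562. Gnas, with the most UMIs of the list, had 547 CPM in Casp8-mutant and 663 CPM in Mlkl-null cells, a ratio of 0.824 and short of the limit. In epithelial-like cells Snrpn had 5 Casp8-mutant and 87 Mlkl-null UMIs. In fibroblast-like cells Kcnq1ot1, the noncoding RNA of the Cdkn1c domain, had 94.4 CPM in Casp8-mutant and 210.5 CPM in Mlkl-null cells, a ratio of 0.459.

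Genes of the insulin-like growth factor pathway were called both ways, with 4 higher and 6 lower of 17 measured over all cells, shares near those of all genes for higher calls (22.3%) and above them for lower ones (26.7%). Igf2bp3, which binds Igf2 mRNA, had 21.1 CPM in Casp8-mutant and 97.2 CPM in Mlkl-null cells, a ratio of 0.219, and Irs2, an adaptor of the receptors, had 26.5 and 84.7 CPM. Igfbp5, a binding protein, was higher, with 43.8 and 13.4 CPM, a ratio of 3.25. Igfbp1 had 37 UMIs in the Casp8-mutant library and 0 in the Mlkl-null library. Of the other inhibitors of cyclin-dependent kinases, 1 was higher and 2 were lower of 5 measured. Cdkn1a (p21) had 254 CPM in Casp8-mutant and 153 CPM in Mlkl-null cells, a ratio of 1.66, while Cdkn1b (p27) had 11.5 and 26.6 CPM and Cdkn2b 23.1 and 46.3 CPM. Beside the same 22.3% of all genes higher and 26.7% lower, 4 of 12 division genes were higher and none was lower, with Top2a at 159 and 85.9 CPM, a ratio of 1.85. Of the genes that keep imprints, 1 was higher and 3 were lower of 7 measured. Uhrf1, which brings the maintenance methyltransferase to replicated DNA, had 27.3 CPM in Casp8-mutant and 12.5 CPM in Mlkl-null cells. Ctcf, which binds the H19 control region, had 30.4 and 54.6 CPM, and Dnmt1, the methyltransferase itself, had 49.6 and 40.3 CPM, a ratio of 1.23 with an interval (0.986 to 1.53) that includes 1.

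The genes most like H19 across classes were found by Pearson's r of log2(CPM + 10) over 10 profiles, 5 classes in each library, among 7224 genes. They were Sec23a (0.96), Clcn5 (0.96), Hif3a (0.95), Sec31a (0.95) and Ppm1b (0.95). For Igf2 they were Ccser2 (0.97), Cttn (0.96) and Plekhg5 (0.96), and for Cdkn1c Ano6 (0.97), Tmem205 (0.93) and Zfyve21 (0.93). Meg3 was most like Rian (0.98), its noncoding neighbour in the same imprinted domain, then Maged1 (0.96) and H1fx (0.95). Dlk1 was most like Ndn (0.96), Fermt2 (0.95) and Ltbp4 (0.95), Mest like Actg2 (0.97), Itm2a (0.94) and Ptn (0.94), Peg3 like Cpe (0.96), Map1b (0.94) and Nnat (0.93), and Grb10 like Camk2g (0.96), Zfp771 (0.94) and Col4a1 (0.94). Among the 8, H19 and Cdkn1c had r of 0.94, H19 and Igf2 0.91, Igf2 and Cdkn1c 0.96, and Dlk1 and Meg3 0.88, while H19 and Mest had 0.15. The profiles of a library share its depth and free RNA. Mest and Actg2 were high in different finer clusters of the Mlkl-null fibroblast-like class. The smooth muscle-like one had 22177 CPM of Actg2 and 35.8 CPM of Mest (1 UMI). The fibroblast-like one had 53.8 CPM of Actg2 and 879 CPM of Mest.

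Promoter windows, 250 bases before to 50 after a start site, were at hand in RefSeq (GRCm38.p6) for 6 of the 8 genes, 13 windows in all. The hexamer TGCCGC, bound by ZFP57 when methylated, was found on either strand in 5 of the 13 and in 11.6% of all 32851 windows. GGGGCCCC was found in 1 (Peg3) against 1.08%, TATAAA in 1 (Meg3) against 13.6%, and GCCATNTT, the core of the YY1 motif, in none against 6.05%. GGGGCCCC is its own reverse complement, and the motifs searched do not contain one another. Of the 5 windows with the hexamer, 2 are Mest windows that overlap almost fully. The second of the Mest windows and the other 3 are shown because they carry the motif of a factor that acts at imprints, and a match is a description of the letters and not a site. Capitals mark the hexamer or its reverse complement.
Igf2 promoter (chr7:142661222-142661521, minus strand): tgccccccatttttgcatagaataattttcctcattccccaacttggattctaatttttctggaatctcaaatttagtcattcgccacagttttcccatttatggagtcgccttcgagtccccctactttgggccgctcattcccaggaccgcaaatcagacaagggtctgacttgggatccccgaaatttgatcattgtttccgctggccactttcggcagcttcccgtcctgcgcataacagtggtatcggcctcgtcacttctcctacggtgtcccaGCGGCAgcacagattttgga
Mest promoter (chr6:30737800-30738099, plus strand): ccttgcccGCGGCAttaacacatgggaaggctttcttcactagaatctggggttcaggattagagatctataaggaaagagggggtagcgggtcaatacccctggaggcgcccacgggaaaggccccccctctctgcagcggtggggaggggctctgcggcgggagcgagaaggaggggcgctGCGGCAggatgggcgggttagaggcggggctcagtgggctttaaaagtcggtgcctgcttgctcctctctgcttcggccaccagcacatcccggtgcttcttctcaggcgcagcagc
Meg3 promoter (chr12:109540746-109541045, plus strand): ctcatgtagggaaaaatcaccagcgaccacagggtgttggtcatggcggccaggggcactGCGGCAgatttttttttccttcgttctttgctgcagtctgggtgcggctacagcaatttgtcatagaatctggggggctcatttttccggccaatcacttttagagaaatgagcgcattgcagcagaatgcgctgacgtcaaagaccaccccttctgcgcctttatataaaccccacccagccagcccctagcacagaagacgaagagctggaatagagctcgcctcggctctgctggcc
Grb10 promoter (chr11:12037371-12037670, minus strand): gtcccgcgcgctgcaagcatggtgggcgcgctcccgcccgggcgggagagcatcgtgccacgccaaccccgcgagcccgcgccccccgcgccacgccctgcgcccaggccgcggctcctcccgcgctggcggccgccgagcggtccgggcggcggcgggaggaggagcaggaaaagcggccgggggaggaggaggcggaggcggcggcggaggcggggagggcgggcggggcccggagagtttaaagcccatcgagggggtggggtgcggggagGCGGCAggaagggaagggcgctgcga
The Mest window holds the hexamer at 2 places and the others at 1. The Grb10 window has 45 CpG pairs and the Mest window 17, where the median window of all has 7. Igf2 has 4 windows in the table, and 3 of them lack the hexamer. H19 and Cdkn1c have no entry.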

How the data were processed

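The authors' deposited files are UMI count matrices of 10x Chromium 3' v2 libraries, made with Cell Ranger 3.0.2 on mm10 and used with Seurat 3.0, per the submitters' processing notes. No replicates exist, so no test was run. Barcodes with at least 500 genes and at most 20% mitochondrial UMIs were kept. Scrublet called 2 Casp8-mutant and 4 Mlkl-null doublets, which were left out, and so few calls mean that doublets may remain. Cells were clustered with scanpy 1.11.5 (2000 variable genes, 30 components, 15 neighbours, Leiden resolution 1), without imprinted genes, and clusters were named from marker lists by a rule set after the clusters were seen. UMIs were summed per library and class. Intervals are exact (Poisson, conditional for ratios, Clopper-Pearson for shares), from scipy 1.17.1, with 0.5 UMI added in ratios. List genes needed 20 UMIs over both libraries and likeness candidates 100. In each list the genes named were those with the most UMIs and the lowest and highest ratios, and others were chosen after their values were seen. The 8 genes and all lists were chosen with earlier results of these data known. The interval script was tested on simulated data.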

Additional observations from a re-analysis of the deposited data

How the results depend on the processing

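H19, Igf2 and Cdkn1c were lower in the Casp8-mutant library under all 10 alternatives over all cells and all 13 in epithelial-like cells, and no ratio called lower turned to higher. Over all cells the H19 ratio was 0.213 with median-of-ratios scaling and 0.192 with all barcodes. It was 0.144 with cells of at least 1000 genes, where 8 of the 8 genes were lower. As a mean over cells it was 0.270, and without the 5 cells with most H19 it was 0.193. With each class found in both libraries weighted by its mean UMI share, it was 0.210. Grb10 lost its call with median-of-ratios scaling (0.680) and as a mean over cells (0.713), which left 4 of the 8 genes lower. With the weighted classes 7 were lower. The mean over cells and the weighted classes have no interval, so their calls rest on the 1.5-fold limit alone. In epithelial-like cells the H19 ratio was 0.237 with at least 1000 genes, 0.314 as a mean over cells and 0.192 without the 5 cells with most H19. It was 0.334 at Leiden resolution 0.5, 0.304 with each library clustered alone and 0.103 in thinned cells with a division UMI. Without a division UMI, 3 of the 8 genes were lower. In fibroblast-like cells the H19 ratio was 0.569 as a mean over cells and 0.750 at Leiden resolution 2, where 1 of the 8 genes was lower. The share of epithelial-like cells with an H19 UMI was 51.6% in Casp8-mutant and 96.9% in Mlkl-null cells after thinning. At 2-fold, 16.4% of genes were lower over all cells and 18.1% in epithelial-like cells. For the alternatives with a count of the 8 genes given here, the share of all genes that were lower was not computed. The cause of these shifts was not tested. Median-of-ratios scaling moved fibroblast-like ratios by 0.13 on the log2 scale. The splits by division UMI were chosen after seeing the data. For fibroblast-like cells 2 alternatives, at least 1000 genes and each library clustered alone, were not run because a library then had too few or no cells of that class. No paired analysis was possible because there was 1 library per group.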
